A study of Homo sapiens with 12 samples.

Results

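NONO binding to RNA in 22Rv1 cells treated with SKBG-1(S) was compared with that in cells given the solvent DMSO, over all peaks in the 4 immunoprecipitation peak lists of those groups. These lists hold 9551 of the 26351 peaks in the 6 lists of the series, and 8 of its 12 libraries stand behind them. The study measured NONO by enhanced crosslinking and immunoprecipitation (eCLIP) in 3 groups, which received DMSO, SKBG-1(S) or SKBG-1(R), with 2 replicates each. 22Rv1 is an established human prostate cancer cell line. Every culture grew for 40 h and was then treated for 4 h, the compound cultures with 20 µM compound in 0.04% DMSO and the control cultures with 0.04% DMSO alone, so all groups carried the solvent. Each condition used 2 to 3 plates, RNA was crosslinked to protein with 400 mJ of ultraviolet light, and NONO was pulled down with a rabbit antibody. Each immunoprecipitation library was paired with an input library of its own. The labels do not say whether the replicates were separate cultures. The p-values given here, except those of the Cochran-Mantel-Haenszel test, therefore measure the spread between these lists, which may be technical. That test takes peaks as independent, so its p-values cover counting error only.

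NONO is an abundant nuclear protein of the DBHS family, which also includes SFPQ and PSPC1. Its members bind RNA and DNA as dimers and take part in splicing, transcription and DNA repair. With the long noncoding RNA NEAT1 they build the nuclear bodies called paraspeckles. In eCLIP a peak is a stretch of RNA whose reads are enriched in the pulldown over its input. A higher number of peaks in a gene can follow from more RNA of that gene as well as from more NONO bound per RNA molecule, and peak lists alone cannot tell these apart. The same holds for the number of cells behind each list.

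The sequences below show what peaks looked like where NONO peaks were present in both SKBG-1(S) lists and neither DMSO list (GRB10, PTP4A1, LINC-PINT), and where they were present in DMSO lists too (DLEU2, MIRLET7BHG, MALAT1). They are given 5′ to 3′ on the strand of the peak, as GRCh38 sequence of GENCODE 29 transcripts, with GGGG and AGGGA in capitals.
GRB10, chr7:50782720-50782816, minus strand, SKBG-1(S) replicate 2: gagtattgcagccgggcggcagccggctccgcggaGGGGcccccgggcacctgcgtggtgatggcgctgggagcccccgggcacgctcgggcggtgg
PTP4A1, chr6:63573248-63573341, plus strand, SKBG-1(S) replicate 1: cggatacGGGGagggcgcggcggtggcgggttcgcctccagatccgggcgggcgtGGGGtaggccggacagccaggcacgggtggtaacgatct
PTP4A1, chr6:63573323-63573411, plus strand, SKBG-1(S) replicate 2: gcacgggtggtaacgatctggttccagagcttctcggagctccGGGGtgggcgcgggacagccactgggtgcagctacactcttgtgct
LINC-PINT, chr7:131106883-131106943, minus strand, SKBG-1(S) replicate 2: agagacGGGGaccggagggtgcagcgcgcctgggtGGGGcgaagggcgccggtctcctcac
DLEU2, chr13:50125395-50125483, minus strand, DMSO replicate 2: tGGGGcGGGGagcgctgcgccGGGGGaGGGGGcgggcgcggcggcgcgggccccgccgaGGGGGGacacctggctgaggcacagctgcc
DLEU2, chr13:50125396-50125487, minus strand, SKBG-1(S) replicate 2: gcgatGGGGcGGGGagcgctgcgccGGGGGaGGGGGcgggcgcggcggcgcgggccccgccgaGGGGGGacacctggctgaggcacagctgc
MIRLET7BHG, chr22:46105416-46105466, plus strand, DMSO replicate 1: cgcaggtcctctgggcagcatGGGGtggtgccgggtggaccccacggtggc
MIRLET7BHG, chr22:46105413-46105467, plus strand, SKBG-1(S) replicate 1: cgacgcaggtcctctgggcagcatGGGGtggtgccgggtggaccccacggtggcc
MALAT1, chr11:65502605-65502616, plus strand, SKBG-1(S) replicate 1: tgAGGGAGGGGa

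In DLEU2 and MIRLET7BHG the DMSO and SKBG-1(S) peaks covered nearly the same bases. The DLEU2 stretch lies in a noncoding exon and was in a region shared by all 4 lists, with a log2 enrichment over input of 3.35 and 3.61 with DMSO and of 4.18 and 3.44 with SKBG-1(S). The LINC-PINT stretch is also in a noncoding exon, and its log2 enrichment was 4.24 and 4.12 in the SKBG-1(S) lists. The GRB10 and PTP4A1 stretches fall in introns of the coding transcripts by the authors' annotation. The printed sequences come from peaks that lie in an exon of a noncoding transcript and touch no exon of a coding transcript. For the motif counts, sequence could be read for 783 of the 9551 peaks (8.20%). These lie within 1 exon of an annotated transcript, coding or noncoding, and the counts describe that subset only. Among them 69.3% held GGGG, beside 53.7% of 1207 windows of the same length directly next to them in the same exon. AGGGA, which can overlap GGGG, was in 14.7% of the peaks and 9.53% of the windows. GTGTGT was in 1.53% and 1.82%. The share with GGGG was 65.7% and 65.6% with DMSO and 77.2% and 70.3% with SKBG-1(S), with 67, 259, 114 and 343 peaks read. In the neighbouring windows of these lists it was 54.4% and 51.1% with DMSO and 62.8% and 52.2% with SKBG-1(S). These motifs were searched on the strand of the peak only, and the peaks had a GC content of 73.8% against 66.7% in the windows. A match is a description of the letters and not a binding site.

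The number of peaks differed more between replicates than between treatments. The DMSO lists held 669 and 3678 peaks and the SKBG-1(S) lists 1237 and 3967. SKBG-1(S) thus had 1.85 times as many peaks as DMSO in replicate 1 and 1.08 times as many in replicate 2, while replicate 2 had 5.50 times (DMSO) and 3.21 times (SKBG-1(S)) as many as replicate 1. The mean difference of 0.50 in log2 number of peaks gave p = 0.667 in an exact two-sided permutation test, where 2 lists against 2 cannot go below 0.333. The difference turned to -0.73 without DMSO replicate 1 and to -0.34 without SKBG-1(S) replicate 2. The files give no read numbers, so the depth is unknown and the list length sets the precision. For this reason peaks of a gene are given as peaks per 10000 peaks of the list. Of 12 genes that mark luminal prostate cells, 4 held a peak, GRHL2 and SPDEF among them, and none of 16 markers of other cell types did. A transcript without a peak can still be present, so this check of the cell line's label is partial.

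Most NONO peaks lay in introns under both treatments. Proximal introns, the parts within 500 nt of a splice site, accounted for 35.4% and 22.6% of peaks with DMSO and for 39.5% and 30.0% with SKBG-1(S), a mean difference of 5.75 percentage points (4.02 in replicate 1 and 7.48 in replicate 2; exact two-sided permutation p = 0.667). Distal introns held 52.0% and 68.7% in DMSO and 50.4% and 59.5% in SKBG-1(S), a mean difference of -5.37 points with the same exact permutation p of 0.667. In both classes the groups overlapped. Without DMSO replicate 2 the difference turned to -0.68 points for proximal and 2.96 points for distal introns. In replicate 2 alone the 95% Wilson intervals stood apart: 21.2% to 23.9% for DMSO and 28.6% to 31.5% for SKBG-1(S) in proximal introns. These intervals cover counting error only. Replicate 1, with its shorter lists, had intervals that overlapped, at 31.9% to 39.1% and 36.8% to 42.2%.

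**Figure D1:**
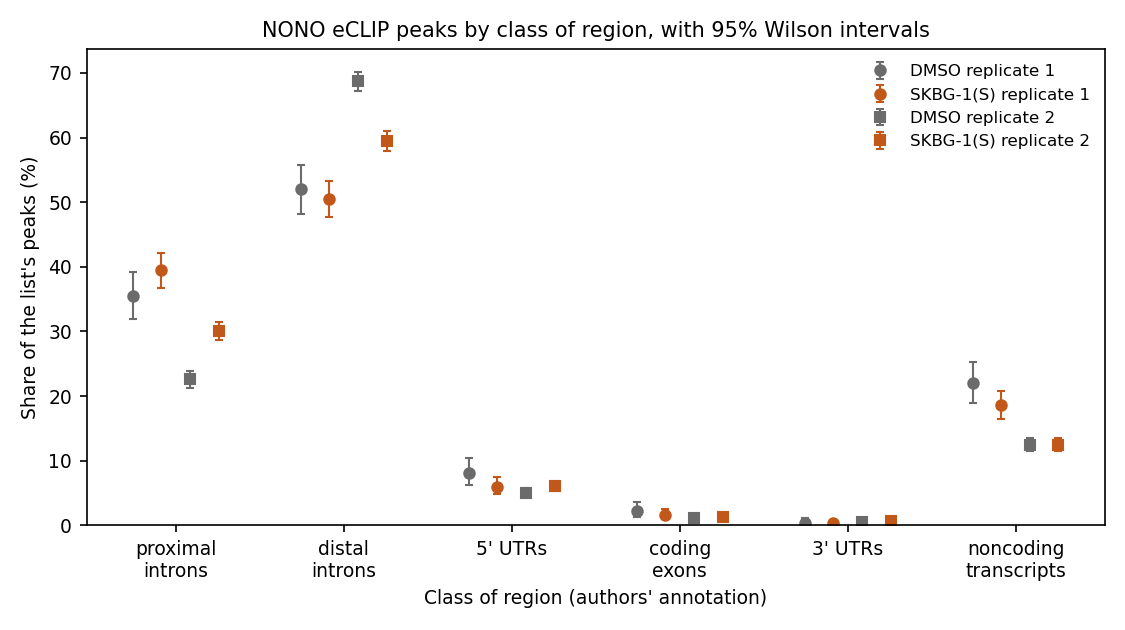
Share of each list's peaks (%) by class of region, one point per list with its 95% Wilson interval; circles are replicate 1, squares replicate 2, grey DMSO and orange SKBG-1(S). In proximal introns SKBG-1(S) was higher than DMSO within each replicate (39.5% against 35.4% and 30.0% against 22.6%), while the replicates themselves stood far apart.

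The smaller classes showed no difference beyond the spread between lists. The 5′ untranslated regions (UTRs) took up 8.07% and 5.0% of peaks with DMSO and 5.98% and 6.02% with SKBG-1(S). The shares of coding exons were 2.24% and 1.06% against 1.62% and 1.36%, and 3′ UTRs 0.299% and 0.517% against 0.323% and 0.655%. Noncoding transcripts, counted over their exons, introns and microRNAs and so overlapping the intron classes, held 22.0% and 12.5% in DMSO and 18.6% and 12.5% in SKBG-1(S). The exact permutation p was 1 for 5′ UTRs and coding exons and 0.667 for 3′ UTRs and noncoding transcripts. After Benjamini-Hochberg adjustment over the 6 classes every p was 1. Peaks within 2 kb of the annotated gene start made up 42.0% and 24.9% of the DMSO lists and 41.3% and 33.5% of the SKBG-1(S) lists (exact permutation p = 1). The peaks themselves were alike in shape: their median width was 67 and 73 nt in DMSO and 65 and 75 nt in SKBG-1(S), and their median log2 enrichment 3.72 and 3.59 against 3.76 and 3.64. The 10 genes with the most peaks took 28.1% and 17.3% of the DMSO lists and 23.8% and 13.6% of the SKBG-1(S) lists.

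No single gene passed the test for a difference between SKBG-1(S) and DMSO. Peaks were counted in 1200 genes over the 4 lists, and 479 genes with at least 10 peaks over all 6 lists were tested with limma on log2 peaks per 10000. At a Benjamini-Hochberg adjusted p of 0.05 limma called 0 genes (0%), and the smallest adjusted p was 1. At an unadjusted p of 0.05 there were 6 genes (1.25%), all with more peaks in SKBG-1(S): UNKL, ARHGEF2, TRIB3, GRB10, PTP4A1 and CARS. That number was 21 without DMSO replicate 2, 5 without DMSO replicate 1, 1 without SKBG-1(S) replicate 1 and 4 without SKBG-1(S) replicate 2. UNKL, ARHGEF2, TRIB3, GRB10, PTP4A1 and CARS each passed the filter of 10 peaks only through the compound lists, so their common direction is no support. The median log2 difference over the 479 genes was 0.14, and 0.03 when lists were scaled by the median of ratios. The median half-width of a gene's 95% interval, without adjustment, was 2.23 on the log2 scale. Smaller differences were mostly not detectable with these lists, and larger ones could fail after adjustment, as did that of UNKL at 3.38. A Cochran-Mantel-Haenszel test stratified by replicate number, which takes peaks as independent and therefore has too small an error, called 8 genes, with 41 at an unadjusted p of 0.05. UNKL and ANKRD11 were higher in it, and BAHCC1, C22orf34, C7orf50, GSE1, PLEC and PMEPA1 lower.

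Within the same-numbered pairs, 104 genes were higher and 50 lower with SKBG-1(S) in both, 136 moved in opposite directions, and 189 had a difference of 0 in 1 or both pairs. Both SKBG-1(S) lists lay above both DMSO lists per 10000 peaks in 64 of the 479 genes (13.4%), and below them in 23 (4.8%). Peaks of the compound lists count towards the filter, so this imbalance is no support either. Where a gene has no peak in a DMSO list, its fitted log2 difference depends on the prior count added before taking logs. That count was 2 scaled to the length of each list, so the fitted difference is no bound on the fold change. The peaks of each list are therefore given first.

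**Figure D2:**
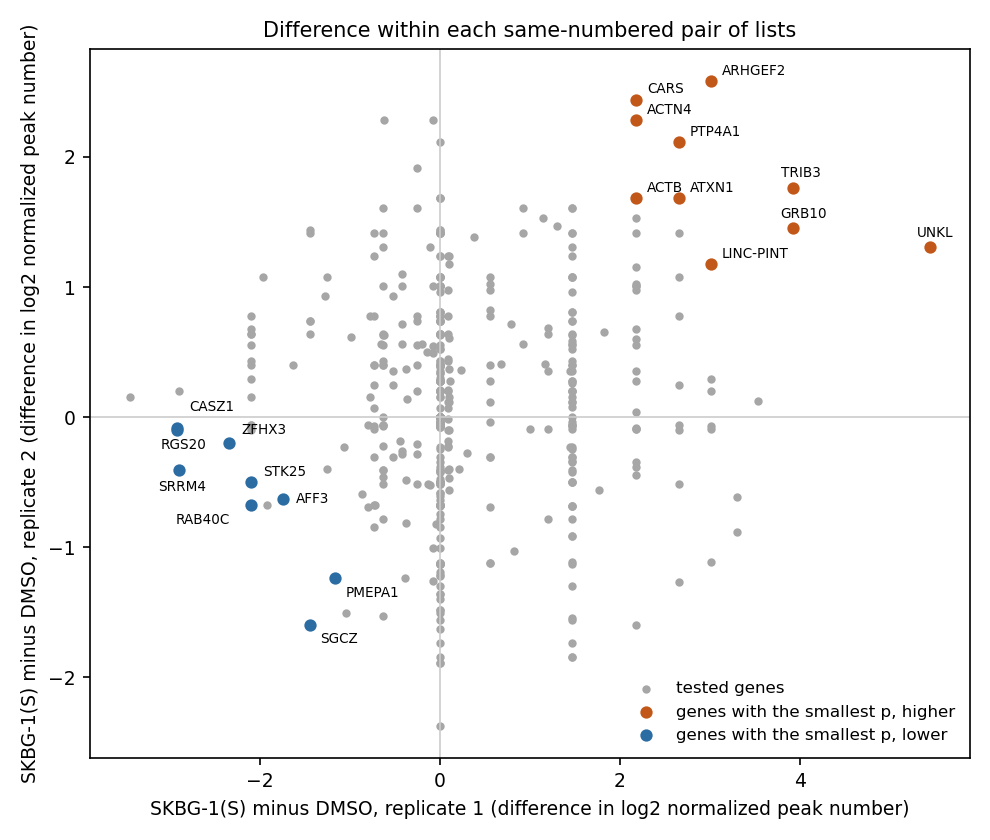
Difference in log2 normalised peak number between SKBG-1(S) and DMSO in replicate 1 (horizontal) and replicate 2 (vertical) for the 479 tested genes; orange and blue mark genes with the smallest p in each direction. UNKL lies farthest to the right, and ARHGEF2 and CARS highest, while 136 genes lie in the quadrants of opposite direction.

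The few genes of the integrated stress response that held NONO peaks had more of them in the SKBG-1(S) lists than in the DMSO lists, but no difference passed the test, and each also had peaks in the SKBG-1(R) lists. This response is the programme by which cells faced with amino acid shortage or misfolded protein slow translation and make the transcription factor ATF4. Of 52 listed genes of it, 4 held a peak, 3 were tested, and 0 passed the test. Summed over the list, peaks per 10000 were 0 and 2.72 in DMSO and 97.0 and 58.0 in SKBG-1(S), so the groups did not overlap. TRIB3, a pseudokinase that ATF4 induces and that restrains AKT (chr20:362835-397559, plus strand), had 0 and 1 peaks in DMSO and 8 and 8 in SKBG-1(S). Its log2 difference was 2.85 ± 1.10 (SE; 95% interval 0.57 to 5.12; limma adjusted p = 1), at 1.95 with a prior count of 5 and 4.16 with 0.5. All of its SKBG-1(S) peaks lay between 18.5 and 19.4 kb from the annotated gene start, and the DMSO peak at 19.3 kb fell in the same stretch.

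CARS, which encodes the tRNA ligase for cysteine, had 0 and 0 peaks in DMSO and 2 and 8 in SKBG-1(S), a log2 difference of 2.31 ± 1.07 (SE; 95% interval 0.09 to 4.53; limma adjusted p = 1). ATF3, a stress-induced transcription factor, had 0 and 0 against 2 and 3 peaks, all about 44 kb from the annotated gene start. SESN2, an inhibitor of the growth kinase mTORC1, had 4 peaks in SKBG-1(S) replicate 2 only and was not tested. In the SKBG-1(R) lists TRIB3 had 9 and 13 peaks, CARS 4 and 23, ATF3 1 and 5, and SESN2 0 and 1. The 3 tested genes passed the filter of 10 peaks only through the compound lists, so their common direction is no support. The list was drawn up with earlier results of these data known, so its direction is not independent evidence.

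Transporters that bring amino acids into the cell are a related group, since ATF4 induces several of them. Of 18 listed, 4 held peaks and were tested, 0 were called, 3 log2 differences were above 0 and 1 was below, and 2 genes were higher in both pairs. The median log2 difference was 0.62, beside 0.14 for all tested genes. SLC7A1 and SLC6A9, with no peak in DMSO, passed the filter of 10 peaks only through the compound lists. The direction of these genes is therefore no support. SLC7A5, the large neutral amino acid transporter, had 149 and 136 peaks per 10000 in DMSO and 243 and 181 in SKBG-1(S), from 10, 50, 30 and 72 peaks. The groups did not overlap, and the log2 difference of 0.54 ± 0.83 (SE; 95% interval -1.18 to 2.27; limma adjusted p = 1) was within its error. SLC7A1, which carries cationic amino acids, had 0 and 0 peaks in DMSO and 3 and 2 in SKBG-1(S), all within 0.798 kb of the gene start. SLC6A9, a glycine transporter, had peaks in SKBG-1(S) replicate 2 only, with 3. SLC38A10, a transporter of neutral amino acids, had 0 and 21.8 peaks per 10000 in DMSO and 0 and 15.1 in SKBG-1(S).

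UNKL, a zinc finger gene related to the RNA-binding protein unkempt, showed the smallest p. It lies on chromosome 16 at 1363205 to 1414751, minus strand (GRCh38), and had 0 and 8 peaks in DMSO and 24 and 24 in SKBG-1(S). That is 0 and 21.8 peaks per 10000 against 194 and 60.5, so the groups did not overlap. The log2 difference was 3.38 ± 1.04 (SE; 95% interval 1.21 to 5.54; limma adjusted p = 1), and 2.14 without DMSO replicate 1. In the Cochran-Mantel-Haenszel test the odds ratio was 4.83 (adjusted p = 0.00315). Peaks of SKBG-1(S) replicate 1 spanned 35.4 to 42.3 kb from the gene start, and those of DMSO replicate 2 spanned 35.9 to 42.3 kb. In SKBG-1(S) replicate 2 they began at 35.6 kb and reached 51.1 kb. In replicate 1 of SKBG-1(S), 19 of the 24 peaks were in distal and 5 in proximal introns. Thus the peaks of both groups lay mostly in the same block of introns, in the distal part of the gene.

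**Figure D3:**
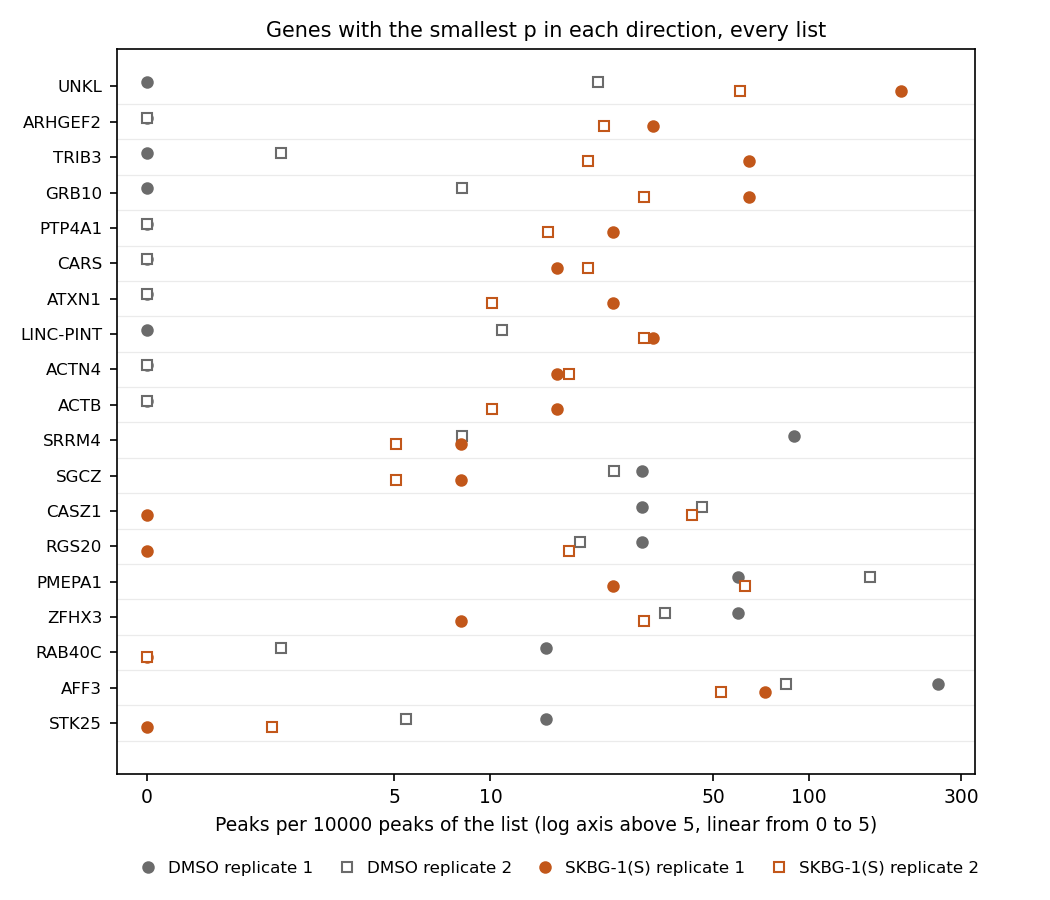
Peaks per 10000 peaks of the list in every list (log axis above 5, linear from 0 to 5) for genes with the smallest p in each direction; filled circles are replicate 1, open squares replicate 2, grey DMSO, orange SKBG-1(S). ARHGEF2, PTP4A1, CARS, ATXN1, ACTN4 and ACTB sit at 0 in both DMSO lists, whereas among the lower genes CASZ1 and PMEPA1 overlap between groups.

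The cytoskeletal genes as a list overlapped between the groups, with 0 and 114 peaks per 10000 in DMSO and 97.0 and 129 in SKBG-1(S). Of 47 listed genes of actin and microtubules, 16 held a peak, 10 were tested, 0 were called, and 5 were higher in both pairs and 0 lower. Their median log2 difference was 0.73, and it includes ARHGEF2, ACTN4 and ACTB, which passed the filter only through the compound lists. ARHGEF2, which encodes GEF-H1, an activator of RhoA that is held on microtubules, had 0 and 0 peaks in DMSO and 4 and 9 in SKBG-1(S), a log2 difference of 2.80 ± 1.07 (SE; 95% interval 0.57 to 5.03; limma adjusted p = 1). Its peaks gathered between 28.4 and 31.5 kb from the annotated gene start, with 2 of 4 and 4 of 9 in a 5′ UTR. ACTN4, an actin crosslinker, had 0 and 0 against 2 and 7 peaks, from 0.327 to 2.64 kb from the gene start. ACTB, which encodes beta-actin, had 0 and 0 against 2 and 4. PLEC, the cytolinker plectin, went the other way, with 0 and 31 peaks in DMSO and 1 and 8 in SKBG-1(S), or 0 and 84.3 against 8.08 and 20.2 per 10000. It was low in both lists of replicate 1, and the Cochran-Mantel-Haenszel odds ratio was 0.26 (adjusted p = 0.0170).

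Among signalling adaptors and phosphatases, 12 of 27 listed genes held a peak, 7 were tested and 0 called, and 3 were higher and 1 lower in both pairs. The median log2 difference was 0.32, beside 0.14 for all tested genes. The higher genes, GRB10, PTP4A1 and SPRED2, passed the filter of 10 peaks only through the compound lists, so their common direction is no support. GRB10, an adaptor that dampens insulin receptor signalling, had 0 and 3 peaks in DMSO and 8 and 12 in SKBG-1(S). Per 10000 these were 0 and 8.16 against 64.7 and 30.2, with a log2 difference of 2.69 ± 1.06 (SE; 95% interval 0.48 to 4.90; limma adjusted p = 1). All its peaks lay in the first 11.2 kb of the gene (chr7:50590063-50793462, minus strand). PTP4A1, a phosphatase of the PRL family (chr6:63521746-63583377, plus strand), had 0 and 0 peaks in DMSO and 3 and 6 in SKBG-1(S), with a log2 difference of 2.39 ± 1.0 (SE; 95% interval 0.32 to 4.45; limma adjusted p = 1). They sat in a cluster 51.1 to 51.8 kb from the annotated gene start, the stretch whose sequences are given above. PTPRN2, a receptor-type phosphatase of secretory granules, had 59.8 and 101 peaks per 10000 in DMSO and 56.6 and 47.9 in SKBG-1(S). SPRED2, an inhibitor of RAS signalling, had 29.9 and 13.6 against 40.4 and 42.9.

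**Figure D4:**
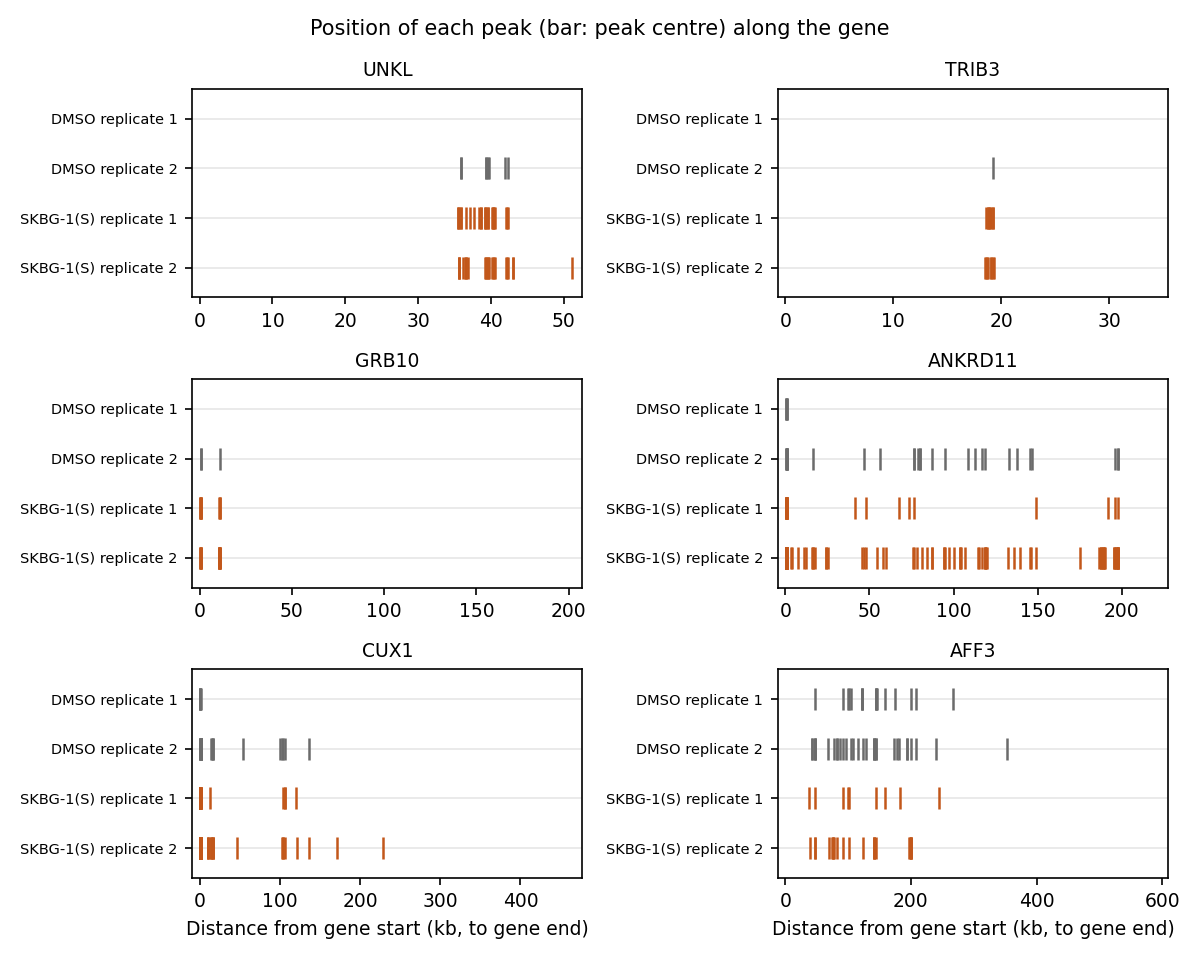
Distance of each peak's centre from the annotated gene start (kb; each axis runs to the gene's end) in 6 genes, one row per list. In UNKL, TRIB3 and GRB10 the SKBG-1(S) peaks cluster where the few DMSO peaks lie. AFF3 peaks scatter from 38.6 to 352 kb, and in CUX1 and ANKRD11 a cluster near the gene start (CUX1: 5 of 5 and 12 of 22 DMSO peaks within 2 kb, 17 of 22 and 20 of 38 with SKBG-1(S)) goes with peaks farther along the gene.

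ANKRD11, a large chromatin regulator that recruits histone deacetylases, had more peaks with SKBG-1(S) in both pairs. It had 4 and 27 peaks in DMSO and 19 and 84 in SKBG-1(S), or 59.8 and 73.4 against 154 and 212 per 10000, and the groups did not overlap. The log2 difference of 1.38 ± 0.82 (SE; 95% interval -0.32 to 3.09) did not pass limma's test (adjusted p = 1), while the Cochran-Mantel-Haenszel odds ratio was 2.87 (adjusted p = 6.6e-05). In replicate 1, 4 of 4 DMSO peaks and 10 of 19 SKBG-1(S) peaks lay within 2 kb of the gene start, and in replicate 2, 6 of 27 and 16 of 84 did. CUX1, a homeodomain transcription factor, had 74.7 and 59.8 against 178 and 95.8 peaks per 10000, with a log2 difference of 0.92 ± 0.90 (SE; 95% interval -0.94 to 2.78; limma adjusted p = 1).

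The chromatin regulators and corepressors as a list showed no common direction. Of 55 listed, 31 held a peak, 23 were tested, 0 were called, 5 were higher and 7 lower in both pairs, and the median log2 difference was -0.00, beside 0.14 for all tested genes. EHMT1, a histone H3 lysine methyltransferase, had 149 and 95.2 peaks per 10000 in DMSO and 88.9 and 58.0 in SKBG-1(S). BCOR, a corepressor of BCL6, had 74.7 and 128 against 56.6 and 70.6. In both genes the groups did not overlap, though the log2 differences of -0.70 ± 0.91 and -0.60 ± 0.93 (SE) were smaller than their errors. GSE1, a subunit of corepressor complexes, had 29.9 and 231 in DMSO and 56.6 and 111 in SKBG-1(S), so its pairs went in opposite directions. BAHCC1, a reader of methylated histone H3, had 0 and 139 against 8.08 and 35.3. GSE1 and BAHCC1 were lower in the Cochran-Mantel-Haenszel test (adjusted p = 0.0161 and 0.000675), with replicate 2 alone behind that direction.

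Genes with fewer peaks in SKBG-1(S) had smaller differences, and none reached an unadjusted limma p of 0.05. The filter counts the compound lists too, so genes with few DMSO peaks enter it more easily than genes with few compound peaks. This contrast between the directions is therefore no support. SRRM4, a splicing activator of neuronal microexons, had 6 and 3 peaks in DMSO and 1 and 2 in SKBG-1(S), a log2 difference of -1.65 ± 1.16 (SE; 95% interval -4.06 to 0.76; limma adjusted p = 1). SGCZ, a sarcoglycan of the dystrophin complex, had 29.9 and 24.5 against 8.08 and 5.04 peaks per 10000, with a log2 difference of -1.52 ± 1.08 (SE; 95% interval -3.76 to 0.71; limma adjusted p = 1). In both genes the groups did not overlap, but in SRRM4 only barely, at 89.7 and 8.16 against 8.08 and 5.04 peaks per 10000. AFF3, a nuclear scaffold protein of elongation complexes, had 254 and 84.3 against 72.8 and 52.9, and its log2 difference was -1.19 ± 0.98 (SE; 95% interval -3.22 to 0.85; limma adjusted p = 1), or -0.42 without DMSO replicate 1. Its peaks were spread over 38.6 to 352 kb from the gene start, all but 1 of them in distal introns.

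Of 26 listed genes of the prostate lineage and its cancers, 11 held a peak, 9 were tested and 0 called, 2 were higher and 2 lower in both pairs, and the median was -0.07. ZFHX3, a tumour suppressor of prostate, had 59.8 and 35.3 against 8.08 and 30.2 peaks per 10000. The 4 peaks of DMSO replicate 1 all lay in 1 stretch of 39 nt (chr16:73478316-73478354), and the log2 difference of -1.27 turned to 0.089 by covered nucleotides. GRHL2, an epithelial transcription factor, had 14.9 and 24.5 against 16.2 and 20.2.

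PMEPA1, a feedback inhibitor of TGF-beta signalling, had 4 and 57 peaks in DMSO and 3 and 25 in SKBG-1(S). Per 10000 these were 59.8 and 155 against 24.3 and 63.0, with a log2 difference of -1.20 ± 0.92 (SE; 95% interval -3.10 to 0.70; limma adjusted p = 1), which turned to 0.35 among peaks with a log2 enrichment of at least 4. The Cochran-Mantel-Haenszel odds ratio was 0.40 (adjusted p = 0.00632). Of 14 listed genes of TGF-beta and SMAD feedback, 4 held a peak, 3 were tested, 0 called, 0 higher and 1 lower in both pairs, with a median of -0.61. SKI, a corepressor of SMAD proteins, had no peak in replicate 1 of either group, and 106 against 42.9 peaks per 10000 in replicate 2. CASZ1 and RGS20 had 17 and 7 peaks in replicate 2 of both groups, so their lower values rest on the 2 DMSO peaks of replicate 1 in each. Without SKBG-1(S) replicate 1 the log2 difference of CASZ1 turned from -1.51 to 0.18, and that of RGS20 went from -1.50 to -0.37. RAB40C had 1 and 1 peaks in DMSO and none in SKBG-1(S), and STK25 1 and 2 against 0 and 1, too few to read.

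Primary transcripts of microRNAs held many of the peaks in every list. MIRLET7BHG, the host of let-7b, had 58, 42, 83 and 50 peaks in DMSO and SKBG-1(S) lists, or 867 and 114 against 671 and 126 per 10000, so replicates differed far more than treatments. C22orf34, a noncoding transcript, had 448 and 372 against 437 and 209. It was lower in the Cochran-Mantel-Haenszel test (odds ratio 0.64, adjusted p = 0.0161), with most of the difference in replicate 2. DLEU2, the host of miR-15a and miR-16-1, had 44.8 and 38.1 against 80.8 and 65.5 without overlap, and a log2 difference of 0.75 ± 0.93 (SE; 95% interval -1.18 to 2.68; limma adjusted p = 1). Of 15 listed hosts, 4 held a peak and were tested, 0 were called, 1 was higher and 1 lower in both pairs, and their median was 0.32.

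The paraspeckle RNA NEAT1 gave few peaks, while genes of paraspeckle proteins held 7 and 55 in DMSO and 20 and 59 in SKBG-1(S). NEAT1 had 1 peak, in SKBG-1(S) replicate 1, and MALAT1 1 peak in replicate 1 of each group at the same short stretch. LINC-PINT, a long noncoding RNA induced by p53, had 0 and 4 peaks in DMSO and 4 and 12 in SKBG-1(S), or 0 and 10.9 against 32.3 and 30.2 per 10000, with a log2 difference of 2.10 ± 1.09 (SE; 95% interval -0.16 to 4.35; limma adjusted p = 1). Of 28 nuclear long noncoding RNAs listed, 6 held a peak, 2 were tested and 0 called, 1 was higher in both pairs, and the median was 0.64. Among 46 genes of paraspeckle proteins, 11 held a peak, 8 were tested, 0 called, 4 were higher and 2 lower in both pairs, with a median of 0.36. DAZAP1, an RNA-binding protein, had 29.9 and 40.8 against 72.8 and 55.5 peaks per 10000. Its log2 difference of 0.79 turned to -0.33 among peaks with a −log10 p of 5 or more and to -0.46 with a log2 enrichment of 4 or more. HNRNPF, a binder of G-rich RNA, had 29.9 and 21.8 against 16.2 and 20.2. The NONO transcript itself held no peak in any of the 4 lists.

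The remaining lists had few tested members. Splicing factors, with 4 of 40 tested, had a median log2 difference of -0.01, and 1 gene was higher and 2 lower in both pairs. Cell cycle and DNA repair genes, with 3 of 30 tested, had a median of -0.34, and 0 were higher and 2 lower in both pairs. CCND1, cyclin D1, had 224 and 29.9 peaks per 10000 in DMSO and 170 and 10.1 in SKBG-1(S). Of 20 genes of the response to electrophiles and heat, 2 held a peak, BAG3 and NFE2L2, with 1 each in SKBG-1(S) replicate 2. EEF1A1, translation elongation factor 1A, was the single gene with peaks among 23 snoRNA hosts and ribosomal proteins, with 0 and 0 peaks in DMSO and 3 and 3 in SKBG-1(S). These peaks lay in single stretches of 20 and 22 nt, about 2.6 kb from the gene start.

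At the level of single sites, peaks of the 4 lists were merged into 6262 regions wherever they overlapped by 1 nt or more on a strand. Regions in both SKBG-1(S) lists and neither DMSO list numbered 143, of which 2 were intergenic and the others lay in 92 genes, and the reverse 13. Another 127 regions, in 75 genes, were in all 4 lists. These numbers move with the length of the lists, and the SKBG-1(S) lists were the longer ones in both replicates. With each list cut to the length of the shortest by p-value, the numbers were 51 and 23, and among peaks with a log2 enrichment of at least 4 they were 44 and 4. In replicate 1, 64.7% of the DMSO peaks were overlapped by SKBG-1(S) peaks and 39.2% of the SKBG-1(S) peaks by DMSO peaks. In replicate 2 these shares were 40.5% and 37.7%.

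**Figure D5:**
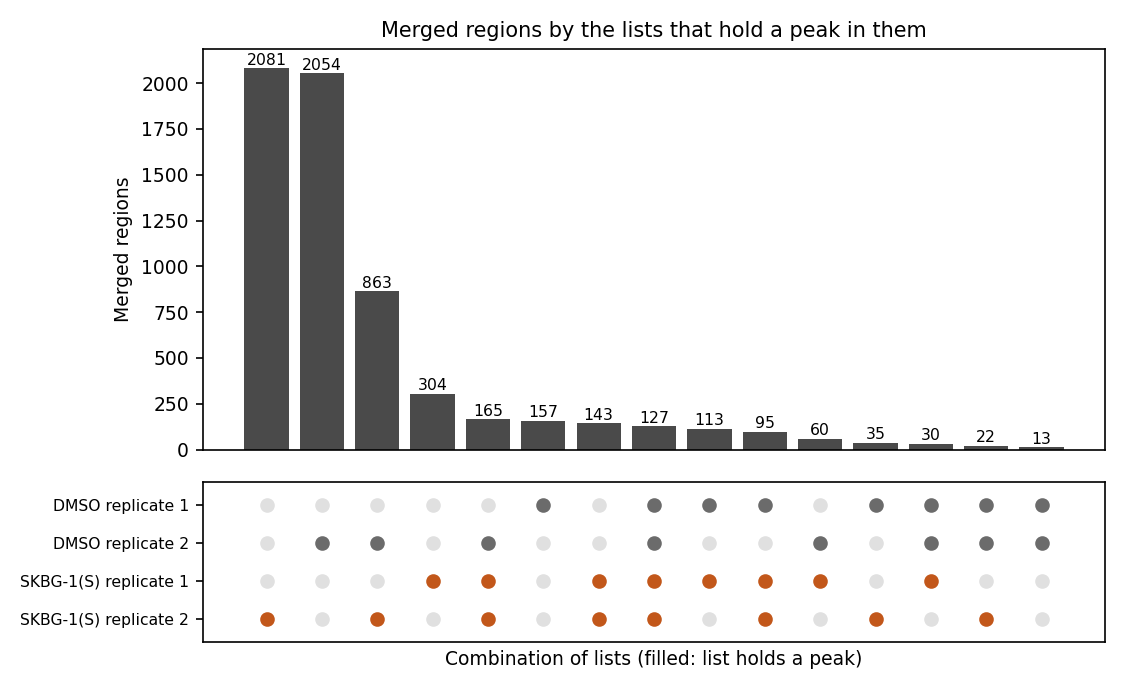
Number of merged regions (bars) for each combination of lists that hold a peak in them (filled dots below). Regions found in 1 list of replicate 2 alone are most frequent (2081 and 2054), those shared by the replicate 2 lists of both groups come next with 863, and 143 are in both SKBG-1(S) lists alone against 13 in both DMSO lists alone.

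Regions of SKBG-1(S) alone are those without a DMSO peak, since the SKBG-1(R) lists were not merged with these lists. The strongest of them lay in a 5′ UTR of GRB10 at chr7:50782337-50782426, with a log2 enrichment of 5.15 and 4.65. The next were in a noncoding exon of LINC-PINT (chr7:131106134-131106282, 4.55 and 4.92), in an intron of C22orf34 (chr22:49639922-49640018, 4.42 and 4.28), in a 5′ UTR of ARHGEF2 (chr1:155977919-155978069, 4.22 and 4.65) and in an intron of DLEU2 (chr13:50124666-50124765, 4.16 and 5.15). UNKL and the noncoding gene RP13-25N22.1 had 6 such regions each, and C22orf34, DLEU2 and MIRLET7BHG 4 each. In the SKBG-1(R) lists GRB10 held 8 and 19 peaks, LINC-PINT 12 and 18, C22orf34 28 and 235, ARHGEF2 4 and 13, and DLEU2 6 and 26. Whether those peaks fall in the same regions was not examined. By class, 47 of the 143 were in proximal and 46 in distal introns of coding genes, and 18 (12.6%) in 5′ UTRs. Of the 127 regions in all 4 lists, 4 (3.15%) were in 5′ UTRs, and no test of this difference was made. Over all peaks of a list the 5′ UTR share was 8.07% and 5.0% with DMSO and 5.98% and 6.02% with SKBG-1(S).

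The 5 strongest of the 13 regions of DMSO alone were in introns of PPP3CA, the catalytic subunit of calcineurin (chr4:101276756-101276816, log2 enrichment 3.57 and 4.26), RARG, a retinoic acid receptor, GNAS, the stimulatory G protein subunit, and ZFHX3, and in a 5′ UTR of SBNO2. The other 8 were in introns of UNC13A, CAPN15, PHF21B, USP3, ADCY6, AFF3, GPR35 and TNRC18. The strongest region in all 4 lists was in a distal intron of PTPRN2 (chr7:158361011-158361103), with a log2 enrichment of 5.32 and 7.85 in DMSO and 4.72 and 4.97 in SKBG-1(S). A region of NFIX, a transcription factor, followed at chr19:12995870-12996254, with 4.66 and 5.78 against 4.47 and 5.69.

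By gene, 316 genes had peaks in both SKBG-1(S) lists, 188 in both DMSO lists and 158 in all 4, which is 50.0% of the former and 84.0% of the latter. Of the 1200 genes with a peak in the 4 lists, 29 had peaks in both SKBG-1(S) lists and neither DMSO list, led by ARHGEF2, CARS, ACTN4 and PTP4A1. The reverse held for 2 genes, GNAS and RAB40C. Like the regions, these numbers move with the length of the lists, and the SKBG-1(S) lists were longer in both replicates. They were not counted with lists of equal length, so the imbalance is no support for a gain.

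Finally, SKBG-1(S) was set beside SKBG-1(R) at the same dose of 20 µM and the same time of 4 h, the 1 pair of compounds in the series. The lists of SKBG-1(R) held 1953 and 14847 peaks. Limma called 0 of 479 genes (0%) for SKBG-1(S) against SKBG-1(R), with a smallest adjusted p of 0.995 and 5 genes at an unadjusted p of 0.05. AFF3 had 72.8 and 52.9 peaks per 10000 with SKBG-1(S) and 5.12 and 0 with SKBG-1(R), a log2 difference of 3.33 (95% interval 1.29 to 5.37; limma adjusted p = 0.995). PTP4A1 had 24.3 and 15.1 against 0 and 1.35, a log2 difference of 2.20 (95% interval 0.13 to 4.27; limma adjusted p = 0.995). The values were 105 and 50.4 against 30.7 and 1.35 for PPP3CA, and 40.4 and 20.2 against 0 and 6.06 for LZTS2. Thus the 5 genes were all higher with SKBG-1(S) than with SKBG-1(R), and none after adjustment.

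UNKL and TRIB3 are 2 of the genes with a small p against DMSO. UNKL had 194 and 60.5 peaks per 10000 with SKBG-1(S) and 138 and 51.9 with SKBG-1(R), a log2 difference of 0.34 (-1.82 to 2.51). TRIB3 had 64.7 and 20.2 against 46.1 and 8.76, a log2 difference of 0.67 (-1.60 to 2.95). These intervals are wide, so the values do not show that the compounds act alike on these genes. Of the 29 genes with peaks in both SKBG-1(S) lists and neither DMSO list, 15 had peaks in both SKBG-1(R) lists and 4 in neither, ANKRD28 and PLEKHA1 among them. Both comparisons with DMSO share the same control lists.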

How the data were processed

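NONO eCLIP peaks of 22Rv1 cells were analysed from 6 peak lists, 1 per immunoprecipitation replicate. The members and gene lists were chosen with earlier results of these data known. The authors deposited, for each peak, its −log10 p and its log2 fold enrichment over input, together with position, strand, gene and class. All deposited peaks have a −log10 p and a log2 enrichment of at least 3, and 4 of those used sit at the upper limit of 400 for −log10 p. The tools named in the submitters' processing notes are cutadapt 1.9 and STAR 2.4.0i, and the builds named there are hg19 and GRCh38/hg38. The peak caller is not given in the sources used here. Of 9850 transcripts the files name, 9805 (99.5%) had the same position within 1 nt in GENCODE 29, so coordinates are given as GRCh38.

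Samples were grouped by the labels. Peaks were counted per gene, leaving out intergenic peaks (0 and 8 in DMSO, 7 and 17 in SKBG-1(S)). Genes with at least 10 peaks over 6 lists were tested in limma 3.58.1 (R 4.3.3) on log2 peaks per 10000. The prior count was 2, scaled to list length relative to the mean length of the lists, and the variance was trended. All 3 groups were in 1 fit, with Benjamini-Hochberg adjustment at 0.05. Lists of 2 against 2 were compared with an exact two-sided permutation test (scipy 1.17.1), and shares have 95% Wilson intervals. The limma code was checked on simulated data, with a pass mark only for large differences at a low spread. That spread was far below the median residual standard deviation of 0.94 in these lists. The check therefore does not show how often real differences would be found here. Alternatives were thresholds on peaks, scaling, prior counts, gene filters, joined peaks, covered nucleotides, equal list lengths, leaving out each list, a replicate block and a Cochran-Mantel-Haenszel test. Named genes were the 10 with the smallest p per direction among those with the same direction in both pairs, the 5 with most peaks per list, up to 4 per gene list, the genes of the strongest group-specific regions, and NONO. Other genes named were chosen after their values were seen. No genome was used, so sequences came from GENCODE 29 transcripts and the neighbouring windows replaced the more distant windows first planned. Some genes that meet this rule are not reported here.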

Additional observations from a re-analysis of the deposited data

How the results depend on the processing

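With lists this few and of such different length, peak numbers limit every comparison, and no read depth was known. Limma called 0 genes for SKBG-1(S) against DMSO and against SKBG-1(R) under each alternative fit, with each list left out in turn included, and the smallest adjusted p ranged from 0.102 to 1 against DMSO. The Cochran-Mantel-Haenszel test called 8 genes against DMSO. With a replicate block limma again called 0 genes, with 23 at an unadjusted p of 0.05 and a smallest adjusted p of 0.513. The labels do not say that a number marks a shared batch, and same-numbered lists deviated together, with a correlation of 0.577 over 479 genes. Against SKBG-1(R) the block gave 0 calls and a smallest adjusted p of 0.121. Leaving out 1 list, where the lone list of a group is assumed to vary like the others, gave a log2 difference in peak number of -0.73 to 1.73, and differences in percentage points of -0.68 to 12.2 for proximal introns, -13.7 to 2.96 for distal introns, -2.07 to 1.0 for 5′ UTRs, -0.75 to 0.43 for coding exons, -0.084 to 0.25 for 3′ UTRs and -6.44 to 3.06 for noncoding transcripts.

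Some small differences turned sign under other settings, and the cause was not tested. The 5′ UTR difference became 0.17 where peaks needed a −log10 p of 5 or more. The coding exon difference became 0.43 with a log2 enrichment of at least 4, 0.17 with peaks within 50 nt joined and 0.024 by covered nucleotides. The 3′ UTR difference became -0.22 with lists of equal length. Regions of SKBG-1(S) alone and of DMSO alone numbered 44 and 4 with a log2 enrichment of at least 4, and 51 and 23 with lists of equal length, where fewer peaks enter. Of 30 genes followed through 528 alternative values, 25 never turned sign, which says nothing of stability, since 20 of them were picked for one direction in both pairs. CASZ1 became 0.033 with a −log10 p of at least 5, 0.11 with a log2 enrichment of at least 4 and between -3.22 and 0.18 when 1 list was left out. RGS20 became 0.040 and DAZAP1 -0.33 with a −log10 p of at least 5. PMEPA1 became 0.35 and DAZAP1 -0.46 with a log2 enrichment of at least 4, and ZFHX3 0.089 by covered nucleotides.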
